A study of Arabidopsis thaliana with 9 samples.

Results

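The transcripts described here are those that could be measured in wild type Arabidopsis thaliana seedlings on an array built mainly for noncoding RNA. A probe was included if it was no control and the scanner software marked it as well above background on each of the 3 wild type (WT) arrays. Such probes and their transcripts count as detected. By this rule 1974 of 15013 probes were detected, or 13.1%, and they stood for 1023 of 5154 transcripts. The seedlings were of the Columbia accession (Col-0) with no mutation given, 2 weeks old, and had been raised on solid MS medium in long days. The 3 WT samples are biological replicates per the series' design, whether a replicate was a pool of plants is not stated, and the study's other 6 arrays, of se-2 and cbp20/cbp80 mutants, were not compared here. Each sample gave 0.5 µg of total RNA, labelled with Cy3 as amplified cRNA for 1 one-colour Agilent array.

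Plant genomes give rise to long noncoding RNAs from intergenic loci, to antisense transcripts of protein-coding genes and to the precursors of microRNAs (miRNAs). A primary miRNA transcript is capped and polyadenylated like an mRNA and folds into a hairpin, which the Dicer enzyme DCL1 cuts in the nucleus to release the mature miRNA. In wild type plants precursors are usually scarce even where the mature miRNA is abundant. The array probes report the precursor and other long RNAs, not the mature miRNA.

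A level below is the log2 processed signal of a probe minus the 75th percentile of the detected probes on the same array, so that a level of 0 is the 75th percentile. A probe's signal depends on how well that probe binds as well as on the amount of RNA, so ranks between transcripts order signals and not amounts. Over the 555 transcripts with more than 1 detected probe, the brightest and dimmest probe of a transcript lay 1.06 apart in the median, or 2.09-fold, so smaller differences between transcripts lie within the spread of their own probes. A transcript is described by its brightest detected probe, and its range is the highest minus the lowest of the 3 arrays, in log2 units. Levels, ranges and the order of the arrays are relative to that percentile. Under the scaling to control transcripts described with the spread over all classes, another array was highest for 48 of 109 named transcripts. For the brightest probe, an array given as highest or lowest held that place under all 7 other scalings, background corrections and value sources tried unless an exception is given. Other probes of a transcript could differ from the brightest: of 70 named transcripts with more than 1 detected probe, 21 had a probe with another highest array, and of the 48 with a range under 2 by the brightest probe, 7 had another probe with a range of at least 2.

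The arrays differed in how much they detected. Replicate 1 had 2192 probes well above background, replicate 2 had 3711 and replicate 3 had 3147, or 14.6%, 24.7% and 21.0% of probes. Replicate 1 alone added 46 probes, replicate 2 alone 1158 and replicate 3 alone 686, while 619 probes passed on exactly 2 arrays and 10530 passed on none. Replicate 1, the dimmest array with a 75th percentile signal of 160.9 against 329.4 and 210.1 on replicates 2 and 3, thus set the limit of the detected set. Without it, 2421 probes passed on both other arrays. Across the 1968 detected probes with a value on all 3 arrays, Pearson's r was 0.94 between replicates 1 and 2, 0.93 between 1 and 3 and 0.91 between 2 and 3. Each WT array lay on its own slide with its own scan, and replicate 3 was read with a later version of the scanner software and another protocol, so plants, slide, scan and software cannot be told apart in any difference between these arrays. The number of arrays limits the precision throughout. Of the listed tissue markers, 0 of 6 leaf and photosynthesis genes, 0 of 5 root genes and 0 of 4 floral organ genes were on the array, so the seedling label could not be checked from them. The array held 2 seed genes, EM1 and EM6, and 0 of their 6 probes were detected.

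Annotated loci were detected far more often than the transcription units. Of the 285 probes of protein-coding loci 79.6% were detected, of the 672 probes of long noncoding RNA (lncRNA) loci 74.0%, and of the 430 probes of other noncoding RNA (ncRNA) loci 73.5%. Of the 331 probes of miRNA precursors 29.0% were detected. Transcription units, which carry TU names and no gene symbol, made up most of the array: of 10459 such probes 6.76% were detected, and of 2786 further ones whose names also hold coordinates 3.52%. All 9 probes against promoters of SDC and TMM stayed below the limit on all 3 arrays.

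**Figure D1:**
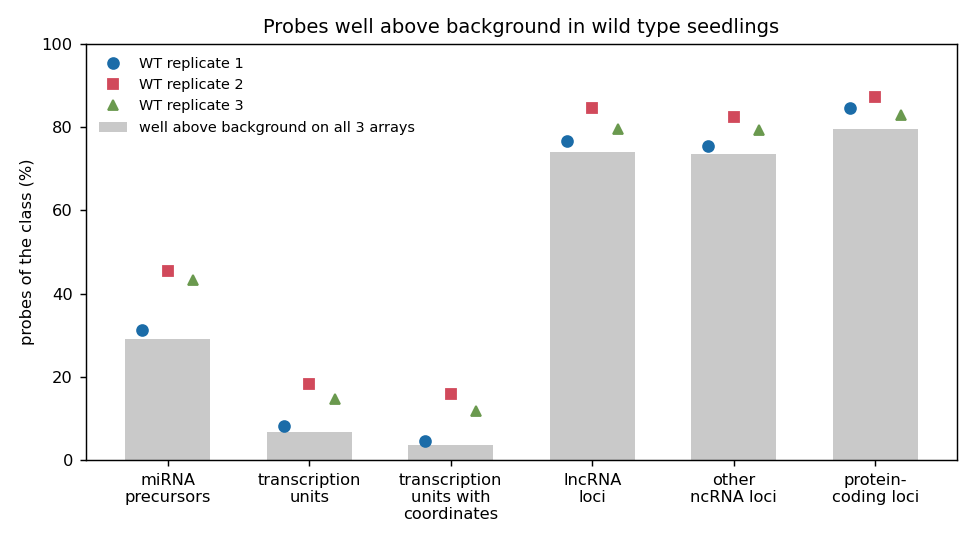
Percent of each class's probes (vertical axis) that were well above background, by class (horizontal axis). Grey bars are probes passing on all 3 wild type arrays and symbols are the single arrays. The transcription units lie below 20% on every array, the precursors between 31.1% and 45.3%, and the 3 classes of annotated loci above 75% on every array.

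The order of the 3 kinds of name was the same on each array. Among AT*G loci, 78.2%, 84.9% and 80.2% of probes were well above background on replicates 1, 2 and 3. For precursors the shares were 31.1%, 45.3% and 43.2%. For transcription units of both naming types together they were 7.35%, 17.7% and 14.0%. The precursors and transcription units were thus lowest on replicate 1 by a wider relative margin than the AT*G loci.

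By transcript, 183 of 224 lncRNA loci, 121 of 145 other ncRNA loci and 83 of 95 protein-coding loci had a detected probe, against 65 precursors, or 37.6% of those on the array. Of the transcription units 477 of 3569 had one, and of those named with coordinates 81 of 930. How many probes of a transcript passed also differed: of the 224 lncRNA loci with 3 probes, all 3 passed in 145, while of the 3331 transcription units with 3 probes all 3 passed in 71 and only 1 passed in 306. Detection of transcription units differed little between chromosomes, from 11.8% of them on chromosome 2 to 13.3% on chromosome 3.

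The levels followed a like order, except that other ncRNA loci lay above lncRNA loci. The median percentile rank among detected probes was 81.2 for protein-coding loci, 68.7 for other ncRNA loci, 56.1 for lncRNA loci, 37.3 for precursors, 32.6 for transcription units and 25.7 for those with coordinates. The top 10% of detected probes, 197 in number, held 74 of protein-coding loci, 56 of other ncRNA loci, 29 of transcription units, 22 of lncRNA loci, 13 of further AT*G loci, 3 of transcription units with coordinates and 0 of precursors. Noncoding probes thus filled much of the top 10%, but precursors did not reach it. In whole seedlings, few cells with much of an RNA and many cells with little of it cannot be told apart.

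**Figure D2:**
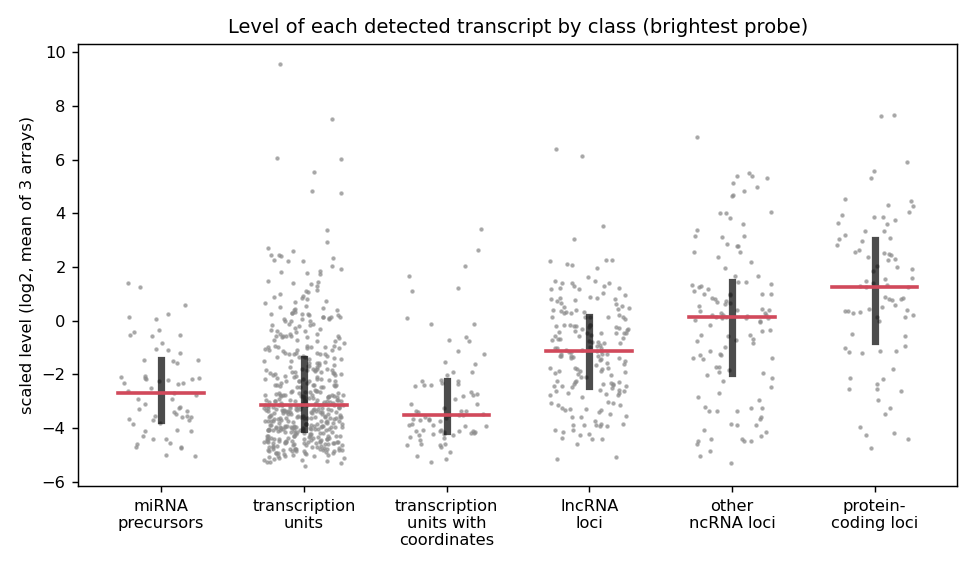
Scaled level (vertical axis, log2, mean of the 3 arrays) of each detected transcript by its brightest probe, by class (horizontal axis). Points are transcripts, black bars run from the 25th to the 75th percentile and red lines are medians. The red line rises from -2.67 for precursors and -3.14 for transcription units to -1.11 for lncRNA loci, 0.14 for other ncRNA loci and 1.27 for protein-coding loci.

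Set against the transcription units of both naming types, the median level of AT*G loci was higher by 2.51 on replicate 1, 2.55 on replicate 2 and 2.1 on replicate 3. The mean difference was 2.39 ± 0.25 (SD, n = 3 arrays), or 5.23-fold, and the exact two-sided sign-flip permutation test over the arrays gave p = 0.25, the smallest that 3 arrays can give. The median level of precursors was higher than that of transcription units by 0.56, 0.55 and 0.31, a mean of 0.48 ± 0.14 (SD, n = 3), with the same exact permutation p of 0.25. The design cannot reach 0.05 for either. Both compare detected probes only, which were 75.1% of AT*G, 29.0% of precursor and 6.08% of transcription unit probes. They are thus not differences between the whole classes. Both differences depended on dim probes: among probes at least 4 times as bright as the dimmest signal well above background on every array, that of AT*G loci was 1.30 and that of precursors turned to -0.096. Normexp background correction gave 1.11 and 0.16.

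The 65 detected precursors had scaled levels from -5.04 to 1.42. They were 37.6% of all precursors on the array, and whether a group differs from that share was not tested. Their families are taken in turn by the genes that the mature miRNA is known to target. Where a family has several near-identical precursors, a probe may bind more than 1 of them, which was not tested.

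The group of SPL and AP2 timing holds miR156 and miR157, which target SPL transcription factor genes and are known to hold seedlings in the juvenile phase, and miR172, which targets AP2-like genes and promotes the adult phase. Of its 17 precursors 7 were detected, near the 37.6% of all precursors, namely MIR156a, MIR156c, MIR156e and MIR157a to MIR157d. The others, MIR156b, MIR156d, MIR156f to MIR156h and the 5 precursors of miR172, did not pass on all 3 arrays. Whether the families differ in detection was not tested. MIR157c was the brightest of the group, at -0.77, -0.67 and -0.21 on replicates 1, 2 and 3. MIR156c stood at -1.93, -1.85 and -2.34, and MIR157a at -1.93, -1.95 and -2.36. All 3 had a range under 1, and the group's median SD among arrays was 0.26, against 0.35 over all detected precursors.

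Of the precursor groups, only that of miRNAs that target the small RNA machinery was detected in full, against 37.6% of all precursors. The group was small, with 7 of 9 probes detected, and its share was not tested. It held 5 precursors: MIR162a and MIR162b, whose miRNA targets DCL1, MIR168a and MIR168b, whose miRNA targets the Argonaute gene AGO1, and MIR403, whose miRNA targets AGO2. MIR162a was the brightest, at -1.40, -1.26 and -1.68. MIR168a stood at -2.51, -2.67 and -2.84 and MIR168b at -2.95, -3.72 and -3.2. MIR403, at -4.51, -5.59 and -4.89, was near the lower end of all detected probes.

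The miRNAs miR165 and miR166 target HD-ZIP III genes of leaf polarity and the meristem. Of their 8 precursors 6 were detected, against 37.6% of all precursors, with a narrow median SD of 0.23. MIR166a, the brightest, stood at -2.08, -2.09 and -2.27. MIR166c stood at -2.58, -3.19 and -2.96 and MIR166d at -3.08, -3.32 and -2.90. Both of these lie between RUG1 and AT5G08720 in the reference gene table.

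Of the 13 precursors in the auxin response and NAC group 5 were detected, near the 37.6% of all precursors. These were MIR160c, MIR167a, MIR167b, MIR167d and MIR393b. MIR167b, whose miRNA targets the auxin response factor genes ARF6 and ARF8, was the brightest at -0.78, -1.33 and -1.14. MIR167a stood at -3.50, -3.23 and -2.91. MIR167d stood at -2.57, -1.07 and -2.79 and was thus higher on replicate 2 than on the other 2 arrays. That locus is on the array a second time as AT1G31173.1, which stood at -1.46, 0.33 and -2.36 and was also highest on replicate 2, with 3 of 3 probes detected under each name. MIR167a is there again as AT3G22886, at -2.58, -2.62 and -2.02, and MIR167b as AT3G63375.1, at -1.59, -1.52 and -1.45. The names of MIR167b thus differed in their highest array, but AT3G63375.1 had a range of only 0.14. With the scaling to control transcripts MIR167b, too, was highest on replicate 3. MIR167c, with 0 probes under its precursor name, was detected as AT3G04765.1, at -4.07, -3.73 and -4.47. These second names are counted among the AT*G loci.

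Precursors of miR159, which targets GAMYB-like MYB genes, were among the brighter ones. MIR159b stood at 0.41, -0.08 and 0.09 and ranked the fifth among detected precursors. MIR159a stood at -0.95, -1.65 and -1.91, with 1 of its 3 probes detected. MIR319b, whose miRNA targets TCP genes of leaf growth, stood at -3.91, -5.29 and -4.89. All 3 of these were highest on replicate 1, but on replicate 3 with the scaling to control transcripts.

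Of the 4 precursors in the GRAS group, whose miRNAs target HAM genes, MIR171b was detected at -2.97, -2.54 and -2.76 and MIR171c at -3.59, -3.92 and -3.51. Of the 4 in the leaf growth group only MIR396a was, at -0.90, -0.93 and -0.68. Its miRNA targets growth-regulating factor genes.

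Of the 14 precursors of miR169, which targets NF-YA genes of the CCAAT-binding factor, 4 were detected and 9 more were well above background on 1 or 2 arrays. MIR169a was the brightest at -3.21, -2.64 and -2.85. The other 3 lie in the interval between AFB2 and AT3G26820 and were each highest on replicate 3. MIR169i stood at -4.79, -4.73 and -2.79 there, MIR169m at -3.92, -4.38 and -2.42, and MIR169j at -4.95, -4.72 and -3.25. Whether these 3 names were read by probes that bind 1 RNA was not tested, and MIR169k, MIR169l and MIR169n of the same interval were not detected on all 3 arrays.

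The nutrient groups were small, and their shares of detected precursors, against 37.6% of all precursors, were not tested. Of the 7 precursors in the copper group 4 were detected. MIR398b, whose miRNA targets copper/zinc superoxide dismutase genes, stood at -1.41, -1.69 and -1.60, and MIR398c at -2.46, -2.10 and -2.37. MIR408, whose miRNA targets genes of copper proteins, stood at -1.70, -2.78 and -2.01. Of the phosphate group, with 12 probes, 0 of 8 precursors passed on all 3 arrays. It holds MIR399a to MIR399f, MIR778 and MIR827, of which 4 passed on 1 or 2 arrays. Of the sulfate group, with 6 probes, 0 of 6 precursors of miR395 passed on all 3 arrays and 1 passed on 1 or 2. Both miR399 and miR395 are known to be induced when the respective nutrient is short.

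Among younger families, MIR163, whose miRNA targets methyltransferase genes, ran from 0.70 on replicate 1 through -0.60 on replicate 2 to -1.18 on replicate 3. All 3 of its probes were highest on replicate 1. MIR158a stood at -2.28, -2.69 and -1.63 and MIR161, whose miRNA targets pentatricopeptide repeat genes, at -2.72, -2.69 and -2.07. MIR828, whose miRNA starts the processing of TAS4 transcripts, was near the limit at -5.0, -4.53 and -4.08. The TAS4 locus itself, AT3G25795.1, was near it too, at -3.84, -4.95 and -4.67, with 2 of 3 probes detected.

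**Figure D3:**
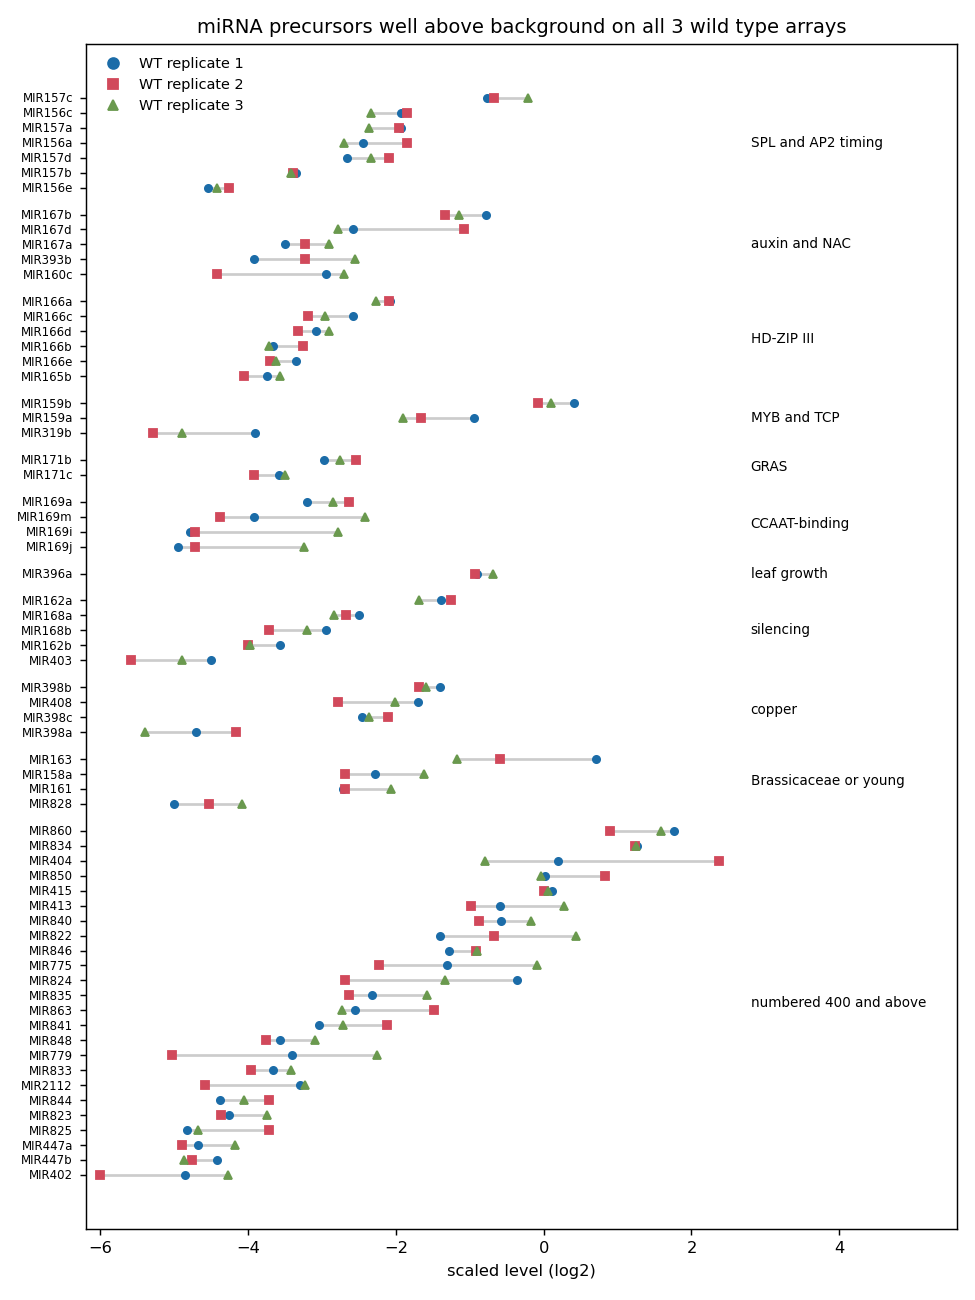
Scaled level (horizontal axis, log2) of the 65 detected precursors (vertical axis, by target group) on each wild type array, by the brightest probe. Symbols are arrays and grey lines join them. Most precursors lie between -5 and 0, and MIR404, MIR779, MIR824 and MIR775 have the longest lines.

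The brightest precursors were mostly of higher number and several lie inside another gene. The group numbered 400 and above held 74 precursors, of which 24 were detected, against 37.6% of all precursors, with levels from -5.04 to 1.42. MIR860, which overlaps the ferrochelatase gene FC1, was the brightest of all at 1.76, 0.90 and 1.58. MIR834, which overlaps AT5G08230, stood at 1.26, 1.24 and 1.25, a range of 0.02, although its other 2 probes ranged over 0.21 and 0.30 and the scaling to control transcripts put it between 0.59 on replicate 1 and 1.98 on replicate 3. MIR850 stood at 0.02, 0.83 and -0.04. It overlaps the ncRNA locus AT4G13495, looked up for that reason after the values were seen, whose transcript AT4G13495.2 stood at 4.91, 5.89 and 4.55, with replicate 2 highest in both. With the scaling to control transcripts replicate 3 was highest for MIR850.

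Of the 45 precursors that overlap another gene in the reference gene list 21 were detected, and of the 127 that do not 44 were, or 46.7% against 34.6%. The reference table gives no strand and the files hold no probe sequences, so RNA of the host gene and of the precursor cannot be told apart for these. Overlap did not always go with detection: MIR838 lies within DCL1, and 0 of its 3 probes were detected while 3 of 3 DCL1 probes were.

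A few precursors varied more between arrays than the rest. MIR404 stood at 0.20, 2.38 and -0.80, a range of 3.17, but its other probe had a range of 0.76 and was highest on replicate 3, not 2. MIR779 stood at -3.41, -5.03 and -2.26, MIR824, whose miRNA targets AGL16, at -0.36, -2.68 and -1.34, and MIR775 at -1.31, -2.23 and -0.09. For each of these last 3 every detected probe had the same highest array, although MIR824 moved from replicate 1 to replicate 3 with the scaling to control transcripts. In all, 4 of 65 precursors had a range of at least 2 (4-fold), or 6.15%, against 11.0% of all 1023 transcripts. With the scaling to control transcripts 308 of the 1023 had such a range.

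Among the transcription units, a few stood at the top of the whole array. AT2TU000020 was the brightest transcript of all, at 9.02, 9.85 and 9.80, and its 3 probes had mean levels of 9.48, 9.49 and 9.56. AT2TU000010, of the adjacent number, stood at 5.61, 5.91 and 6.60. AT3TU041570 stood at 7.53, 7.90 and 7.12 and AT2TU036480 at 5.62, 5.93 and 6.49, each with 1 of 3 probes detected. AT2TU034760 stood at 5.68, 5.90 and 5.07. By these probes none of the 5 reached a range of 1, that is a 2-fold difference, between arrays. The other 2 detected probes of AT2TU034760 had ranges of 2.07 and 3.49. With the scaling to control transcripts AT2TU000020 stood at 8.35, 9.71 and 10.53, and AT2TU000010 and AT2TU036480 also had ranges above 2. Most transcription units were far dimmer: their 25th and 75th percentiles were -4.05 and -1.41.

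Among those named with coordinates, AT4TU017870 was the brightest at 4.11, 3.83 and 2.30, followed by AT1TU022930 at 2.94, 3.12 and 1.83. AT2TU064150 stood at 2.15, 2.21 and 1.77. All 3 rested on 1 of 3 probes. AT1TU030410 had all 3 probes detected and stood at 1.07, 1.01 and 1.20 by the brightest, while another ranged over 2.31.

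The widest ranges among transcription units came with different arrays on top. AT3TU040960 stood at -1.57, -5.97 and -1.32, so that replicate 2 alone was low. AT1TU055330 stood at -3.56, -0.69 and 0.94. AT4TU058070 stood at 3.71, 5.21 and 1.19, and AT5TU061000 at -4.14, -0.84 and -4.46. Of these, AT3TU040960 and AT4TU058070 had a second detected probe, which had the same highest array and a smaller range, of 1.44 and 1.78. At the other end AT1TU075470 stood at -3.01, -3.00 and -3.00 and AT1TU075350 at -3.00, -2.96 and -2.93, but AT1TU075470 ranged over 1.42 with the scaling to control transcripts.

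The lncRNA loci had a median SD among arrays of 0.34 by probe, against 0.44 for other ncRNA loci, 0.42 for precursors, 0.50 for transcription units and 0.64 for protein-coding loci. The reference table places 223 of the 224 lncRNA transcripts over another gene, mostly a protein-coding one, against 29 of 145 other ncRNA transcripts. Without the strand, signal of an lncRNA locus and of its partner cannot be told apart.

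The brightest lncRNA was AT1G25098.1, at 6.49, 6.48 and 6.22, and its second isoform AT1G25098.2 stood at 6.10, 6.48 and 5.86. Probes for AT1G24825, a locus that was not matched in the reference table, gave near-equal levels, with its brightest at 6.44, 6.51 and 6.37. The signal of these loci is therefore uncertain as to its source. AT3G22121.1, over the cell wall-plasma membrane linker gene CWLP, stood at 3.63, 3.72 and 3.25. AT1G29785.1 stood at 3.25, 2.70 and 3.19.

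Some lncRNA loci were almost equal on the 3 arrays by the brightest probe, and were named for that narrow range. AT2G14115.1, over the dynamin-related gene DRP3B, stood at -0.93, -0.99 and -0.96. AT1G29357.1 stood at 1.16, 1.24 and 1.15, and AT1G78265.2, over the glucosyltransferase gene UGT85A4, at 1.27, 1.38 and 1.28. Their other detected probes had ranges of up to 0.41, 0.43 and 0.35. With the scaling to control transcripts AT2G14115.1 stood at -1.60, -1.13 and -0.23.

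One lncRNA locus departed from the rest. AT3G13061.1, over ECT5, a gene of a protein that reads methylated adenosine in RNA, stood at -2.46 on replicate 1, 0.67 on replicate 2 and -4.17 on replicate 3. All 3 probes were highest on replicate 2 and lowest on replicate 3, with ranges of 4.08 to 4.90. Of 183 lncRNA transcripts it was 1 of 5 with a range of at least 2, or 2.73%. The other 4 were AT4G31248.1 at -1.85, -0.61 and -2.82, AT5G01732.1 at -2.78, -4.55 and -5.42, AT4G36052.1 at -4.77, -5.48 and -2.98, and, outside the naming rule and named after its values were seen, AT1G13448.1 at -1.96, -0.63 and -2.76.

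The other ncRNA loci held the brightest annotated noncoding RNA. AT1G15405.1, between AT1G15400 and AT1G15410, stood at 6.86, 7.46 and 6.22. The isoforms of AT1G79075 stood at 5.26, 5.49 and 5.73 (AT1G79075.2) and at 5.24, 5.55 and 5.41 (AT1G79075.1). The other detected probes of AT1G79075.2 were far dimmer, with mean levels of -4.26 and -3.42, and those of AT1G79075.1 had 1.35 and 3.52. AT1G10682.1, between the transporter gene PGP10 and AT1G10690, stood at 5.21, 5.73 and 5.22, and AT1G26558.1 at 5.53, 5.25 and 5.21. AT1G15405.1 overlaps AT1G05163 in the reference table and the others overlap no gene there. None of these 5 had a range as large as 2.

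The other ncRNA loci that moved most were AT3G61198.1, at -2.69, 0.35 and -2.81, and AT1G11185.1, at -0.74, -0.43 and 2.34. AT2G42388.1 stood at 1.65, 4.46 and 2.20 and AT2G06002.1 at -0.62, 0.76 and -1.72. Replicate 2 was highest in 3 of these 4, and replicate 3 in AT1G11185.1. AT2G42388.1 had only 1 of 3 probes detected, and in each of the others every detected probe had the same highest array.

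Protein-coding loci on the array were few and were chosen by its designers, so they do not stand for all mRNAs. The brightest was HOG1, the S-adenosylhomocysteine hydrolase gene of the methylation cycle, at 7.61, 7.54 and 7.87. Its other probes were far dimmer, with mean levels of 0.73 and 1.13, and the latter had a range of 2.84. TSB1, a tryptophan synthase gene, stood at 5.38, 5.08 and 5.46, while its dimmest probe was low on replicate 1, at 1.68, 5.11 and 4.63. ADC2, an arginine decarboxylase gene of polyamine synthesis, stood at 6.52, 5.01 and 6.20.

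By their brightest probes most genes of the small RNA machinery had narrow ranges. Of 14 listed genes 6 were on the array, and all 18 of their probes were detected, against 79.6% of the probes of protein-coding loci. A difference from that share was not tested. DCL1 stood at 2.63, 2.36 and 2.73 and DCL4, which makes trans-acting small RNAs, at 1.37, 1.36 and 1.26. RDR2, DCL3 and NRPD1A act in the pathway that directs DNA methylation. RDR2 stood at 0.65, 0.86 and 1.02, DCL3 at 0.23, 0.51 and 0.60 and NRPD1A at 0.14, 0.44 and 0.54. DCL2, an antiviral Dicer, stood at 0.21, 0.81 and -0.60, a range of 1.41, and the other 5 had ranges of 0.11 to 0.40. Other probes of these genes ranged more widely: the dimmest NRPD1A probe stood at -0.47, -2.58 and -0.13, a range of 2.45, and the dimmest DCL4 probe had a range of 1.13. With the scaling to control transcripts the contrast with DCL2 was lost. DCL1 then stood at 1.96, 2.22 and 3.46, RDR2 at -0.02, 0.72 and 1.76 and NRPD1A at -0.53, 0.30 and 1.27. DCL2, at -0.46, 0.67 and 0.13, had the narrowest range of the 6.

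The clock genes differed between arrays in a shared order. CCA1 and LHY, MYB genes that peak around dawn, were highest on replicate 2 and lowest on replicate 3. CCA1 stood at -2.32, 0.04 and -4.13, and LHY at -1.0, -0.01 and -2.34. The pseudo-response regulator genes, whose proteins repress CCA1 and LHY, followed the same order. PRR9 stood at -2.94, -0.42 and -4.26, PRR7 at 1.75, 4.24 and 0.91 and PRR5 at 2.22, 4.10 and 0.75. Only 1 of 3 probes was detected for PRR9 and 2 of 3 for CCA1. TOC1, which peaks in the evening, was highest on replicate 1, at 4.25, 3.91 and 3.65. With the scaling to control transcripts TOC1 was highest on replicate 3, and LHY, PRR7 and PRR9 were lowest on replicate 1. Thus 5 of 6 clock genes were highest on replicate 2, also under each other scaling, background correction and value source tried, a count made after the data were seen. Of all 113 transcripts with a range of at least 2, replicate 2 was highest in 51. Among the 22 protein-coding loci with such a range it was highest in 7. Both counts include those 5 clock genes, and whether the clock genes differ from either share was not tested. The labels give no time of day for any sample.

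Genes of the response to abscisic acid and cold were highest on replicate 1 by their brightest probes. Of 6 listed genes 4 were on the array. All 4 had a detected probe, as did 87.4% of the protein-coding loci on the array. Of all 113 transcripts with a range of at least 2, replicate 1 was highest in 28. Among the 22 protein-coding loci with such a range it was highest in 12. Both counts include the listed genes, and a difference from either share was not tested. COR15A, which encodes a chloroplast protein that protects membranes in freezing, stood at 5.18, -0.27 and 1.25, a 43.8-fold range. LTI78 stood at 5.31, 3.43 and 2.03 and LTI65 at 0.87, -1.34 and -2.89. The other detected probe of LTI65 stood at -1.69, 0.35 and -4.99 and was highest on replicate 2. KIN1 stood at 0.37, -5.15 and -4.09, with 1 of 3 probes detected. COR47, a dehydrin gene, and COR15B stood at 8.87, 7.62 and 6.42 and at 8.40, 4.14 and 4.19. They were not list members: COR47 was named for its level, and COR15B for its level and its wide range. Both were highest on replicate 1 too. The other detected probes of COR47 had mean levels of -2.17 and 2.45, and those of LTI78 of -3.03 and -2.77. COR15A and COR15B are neighbouring copies, as are KIN1 and KIN2, so a probe may bind both, which was not tested.

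**Figure D4:**
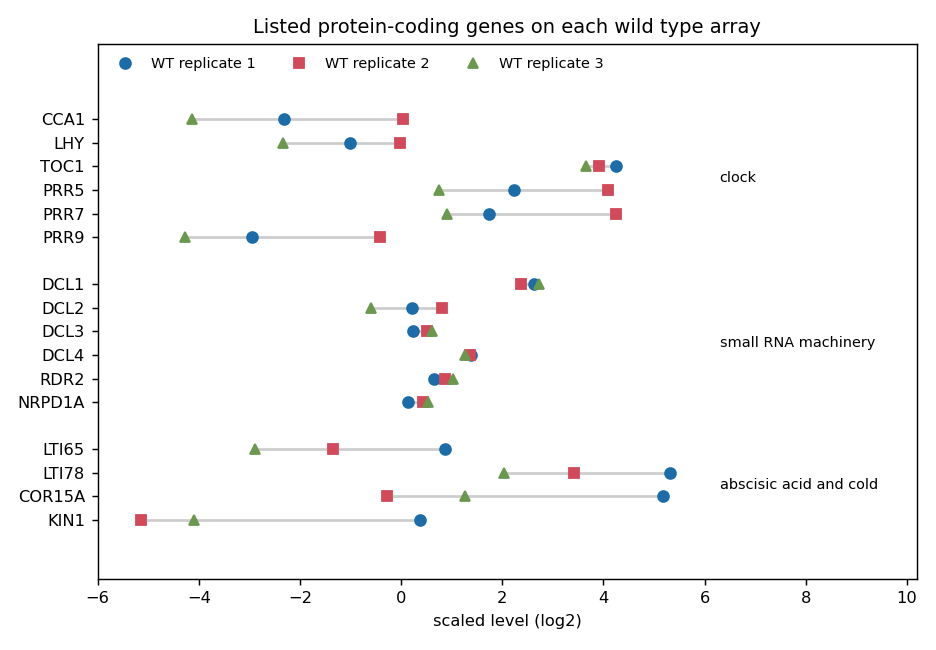
Scaled level (horizontal axis, log2) of the detected clock, small RNA machinery and abscisic acid and cold genes (vertical axis) on each wild type array, by the brightest probe. Replicate 2 is rightmost for 5 of 6 clock genes and replicate 1 for all 4 abscisic acid and cold genes, while DCL1, DCL3, DCL4, RDR2 and NRPD1A have short lines.

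Other listed genes were mixed. WRKY40, a transcription factor gene of defence, stood at 3.60, 1.33 and 3.56, and PAD3, which makes the defence compound camalexin, at 2.91, 1.83 and 2.1, so both were lowest on replicate 2. HFR1, a gene of light signalling, stood at -0.69, -0.24 and -0.76. TIR1, the auxin receptor gene targeted by miR393, stood at -4.17, -4.07 and -4.50 with 1 of 3 probes detected, and NAC1, a miR164 target, had 0 of 3.

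Over all classes, 113 of 1023 transcripts, or 11.0%, had a range of at least 2, and 41 had a range of at least 3 (8-fold). Replicate 1 was highest in 28 of the 113, replicate 2 in 51 and replicate 3 in 34. By class the share was 26.5% of protein-coding loci, 14.8% of transcription units with coordinates, 12.4% of transcription units, 8.26% of other ncRNA loci, 6.15% of precursors and 2.73% of lncRNA loci. Probes of a transcript mostly had the same highest array where the range was wide: of 58 such transcripts with more than 1 detected probe, 50 had the same highest array in all. Among transcripts with a range under 2 and more than 1 detected probe, 282 of 497 did, or 56.7%. The count of wide transcripts rests on the arrays used and fell to 37 without replicate 2 and to 53 without replicate 3.

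**Figure D5:**
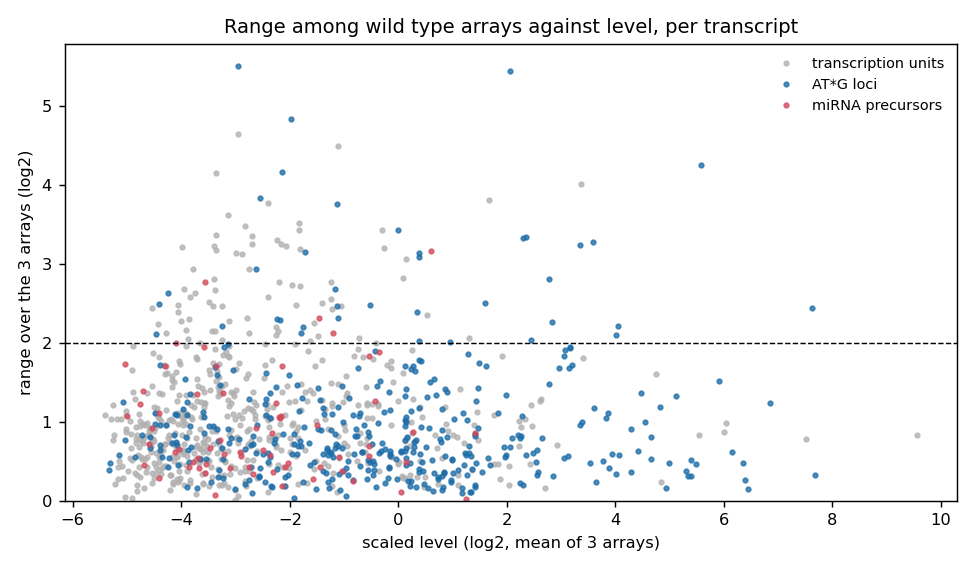
Range over the 3 wild type arrays (vertical axis, log2) against mean scaled level (horizontal axis, log2), 1 point per detected transcript by its brightest probe, coloured by kind of name. The dashed line marks a range of 2, which 113 of 1023 transcripts reached, at low and high levels alike.

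In 4 bins of equal size by level, from the dimmest to the brightest, the median SD of detected probes was 0.44, 0.51, 0.42 and 0.42. The scaling itself bears on the spread. The control transcripts named E1A, whose addition the labels do not describe, gave 7 controls with all 20 spots well above background on every array. After scaling, each control was set against its own mean over the 3 arrays. The median of these deviations over the 7 controls was 0.67, 0.14 and -0.74 on replicates 1, 2 and 3, a 2.65-fold spread. The SD among the spots of 1 control on an array, though, had a median over the 7 controls of 0.08 to 0.14. It ran from 0.053 to 0.476 for single controls. Scaled to these controls in place of the 75th percentile, 308 transcripts had a range of at least 2, of which 253 were highest on replicate 3. Which of these scalings holds was not tested, and the order of transcripts within an array does not depend on it.

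The dimmest detected probes lay close to background. AT3TU060000, the lowest, stood at -5.34, -5.93 and -5.50, and AT4TU041990 at -4.82, -5.91 and -5.47. The brightest probes left out for failing on 1 array each lay above the median detected probe on only 1 array. A probe of CCA1 stood at -3.38, -0.92 and -5.34, and one of AT1TU037270 at -2.18, -6.91 and -0.84. The medians of the detected probes were -1.99, -1.85 and -1.99. Transcripts that vary much between arrays could thus drop out of the detected set.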

How the data were processed

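Total RNA of 3 wild type seedling samples was measured on one-colour Agilent arrays. Per the file headers, the deposited intensity of a spot is a processed signal from Agilent Feature Extraction (10.5.1.1 on 2 arrays, 10.7.3.1 on 1), background-subtracted and detrended within the array and not normalized between arrays. The authors' deposited value table, which ranked probes as that signal did (rank correlation 0.988 to 0.998), held log2-like values with column medians of 0.322 to 0.323. Its scale, normalization and centring are not stated, and it served as an alternative only.

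Control spots were left out, as were 39 spots marked as outliers, all on replicate 2, which took 6 of 1974 probes out of the levels. No spot was saturated (0). Levels were log2 processed signals minus each array's 75th percentile over the detected probes with all values. Classes came from probe names and, for 1404 of 1428 AT*G probes, from the reference gene table (TAIR10.1), which gave symbols, gene types and neighbours. The build of coordinates within some TU names is not given in the sources used here, so none is printed. Class differences were tested over arrays by an exact sign-flip permutation test. The calculation of levels and spreads was tested on simulated levels, which held neither the detection filter nor background.

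The detected probes, gene lists and tests were chosen with earlier results of these data known. Named were, per class, the 5 transcripts with the highest level, the 4 with the widest range and the 3 with the narrowest range in the upper part of the class by level, up to 3 precursors per target group, detected list members, and 2 probes on each side of the limit. Alternatives covered scaling, background, filters, probe choice, value source and leaving out an array. Normexp (limma 3.58.1, R 4.3.3, offset 50) used median spot signals, as mean signals were not used here. Scaling to the E1A controls was added after the data were seen. Other steps used Python 3.11.15 with numpy 2.4.6 and pandas 2.3.3, and matplotlib 3.10.9 drew the figures.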

Additional observations from a re-analysis of the deposited data

Results flagged for a closer look

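Outside the transcripts described, 1 control probe gave signal above the negative controls. ETG10_236652, a control whose nature the files do not give, was well above background in 4 of its 6 spots on replicate 1 and in 6 of 6 on replicates 2 and 3. Its median processed signal was 5.62, 9.86 and 16.3 on replicates 1, 2 and 3, against 0.99, 1.11 and 0.99 for the negative controls.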

How the results depend on the processing

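The arrays number 3, on separate slides, so precision is limited, and a probe near background says little of spread. No paired analysis was possible because only 1 genotype is described and no comparison between groups was made. Of 179 recomputed summaries 40 moved, by over 1.5 times for a count and by over 1 SD for a level or share, 1 reversed and 138 did neither. A class difference was judged by its direction alone and the share of transcription unit probes against a wide SD between arrays, so both could shift a good deal among the 138. The AT*G minus transcription unit difference was 1.11 under normexp, 1.30 with the stricter filter and 2.34 to 2.90 without 1 array. The precursor difference was 0.16 under normexp and 0.44 to 0.79 without 1 array. Transcription unit probes were detected at 2.93% with the stricter filter and 9.89% on 2 arrays, against 6.08%. The reversal was the precursor minus transcription unit difference, -0.096 with the stricter filter. The causes were not tested unless the setting itself gives them.

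The stricter filter left 653 transcripts, with 61.8% of AT*G and 17.5% of precursor probes and ranks of 58.8 and 34.0. Requiring 2 arrays gave 81.0% and 38.4%, ranks of 71.1 and 44.6, and a precursor SD of 0.50. With the brightest probe per transcript, ranks of AT*G loci, precursors and transcription units were 71.8, 44.1 and 36.0 (precursor SD 0.35), and with the mean of probes 70.5, 44.7 and 36.8. Normexp, whose offset compresses low signals, gave SDs of 0.24, 0.22 and 0.23, a precursor rank of 38.0 and 29 transcripts with a 4-fold range. Scaling to the E1A controls gave SDs of 0.79, 0.88 and 0.96, and 308 such transcripts.

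Leaving out 1 array at a time gave SDs of 0.30 to 0.36 for AT*G loci, 0.31 to 0.44 for precursors and 0.30 to 0.51 for transcription units. Ranks were 65.2 to 69.6 for AT*G loci and 38.5 to 42.9 for precursors, 29.3% to 37.5% of precursor probes were detected, and 37 to 104 transcripts had a 4-fold range. Of the 109 named transcripts, the level relative to the median detected probe moved by more than its SD for 69 under normexp, for 18 in the authors' table and for 66, 19 and 29 without replicates 1, 2 and 3. E1A scaling shifts all probes of an array alike and so cannot move that level, but it moved the range by more than the SD for 64.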
